A study of Rattus norvegicus with 17 samples.

Results

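The genes described here encode proteins of tendon and of the junction where muscle fibers anchor to tendon. They are Tnc, Thbs4, Fmod, Comp, Tnmd, Scx, Mkx, Chad, Kera and Eln, chosen by name, and each stood on 1 entry of the deposited count table, 10 of 32495 named entries. All 10 passed the filter on low counts, as did 11856 entries in all. RNA came from the gastrocnemius, a hindlimb muscle, of tumor-bearing rats given chemotherapy (6 samples), tumor-bearing rats given none (5 samples) and healthy rats (5 samples), all on the control diet. The libraries were stranded and made after removal of ribosomal RNA. The labels name neither the tumor, the drug, the strain, the sex nor the age. They do not say that each library came from its own animal, so p-values measure the spread between these samples, which may be partly technical.

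Tendon joins muscle to bone through parallel collagen fibers made by tendon cells, and small proteins on the fiber surface set how the fibers assemble. Scx and Mkx are transcription factors of tendon cells, and Tnmd, which encodes tenomodulin, is a membrane protein widely used as their marker. Fmod, Kera and Chad encode leucine-rich proteins that bind collagen. Thbs4 and Comp are thrombospondins, Tnc encodes tenascin C, an adhesion-modulating protein of tendon and of the junction, and Eln encodes elastin, the stretchable core of elastic fibers in tendon, vessels and connective sheaths. In bulk samples such as these, fewer cells of a type and less RNA per cell cannot be told apart.

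Total counts per sample ran from 3020821 to 19965891 with chemotherapy, from 5422118 to 10857477 with tumor alone and from 3894210 to 15719080 in healthy samples. Libraries 11 and 12, both of the chemotherapy group, were the closest pair within a group, with a chi-square per degree of freedom of 2.04 where the next closest pair had 5.47. Their alignment names differ by a single letter, but the labels do not say that they are 1 RNA sequenced again, so this is uncertain. Their counts were summed into 1 sample, called library 11 here. The alignment names in the file header end in MB or VM, with no meaning given. MB stood on library 11 and on healthy libraries 1 to 4, and VM on the 5 other chemotherapy samples, all 5 tumor samples and healthy library 5. Skeletal muscle markers were high throughout: the summed level of 9 muscle fiber markers lay between 181101 and 324918 CPM in all samples. These markers do not tell the gastrocnemius from other muscles. CPM are counts scaled to a common library size, with TMM factors that correct for composition.

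Much of the variation in the 10 genes lay between samples of the same group. Library 11 had the highest level in its group for all 10 genes. Tumor library 8 was highest in its group for 7 genes and tumor library 10 for the 3 others. Healthy library 1 was highest in its group for 8. Summed over the 10 genes, levels were 1360 CPM in library 11 and 373 to 558 CPM in the 5 other chemotherapy samples. They were 1921 and 1626 CPM in tumor libraries 8 and 10 and 688 to 702 CPM in the 3 other tumor samples. In healthy rats they ran from 469 to 1148 CPM.

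**Figure D1:**
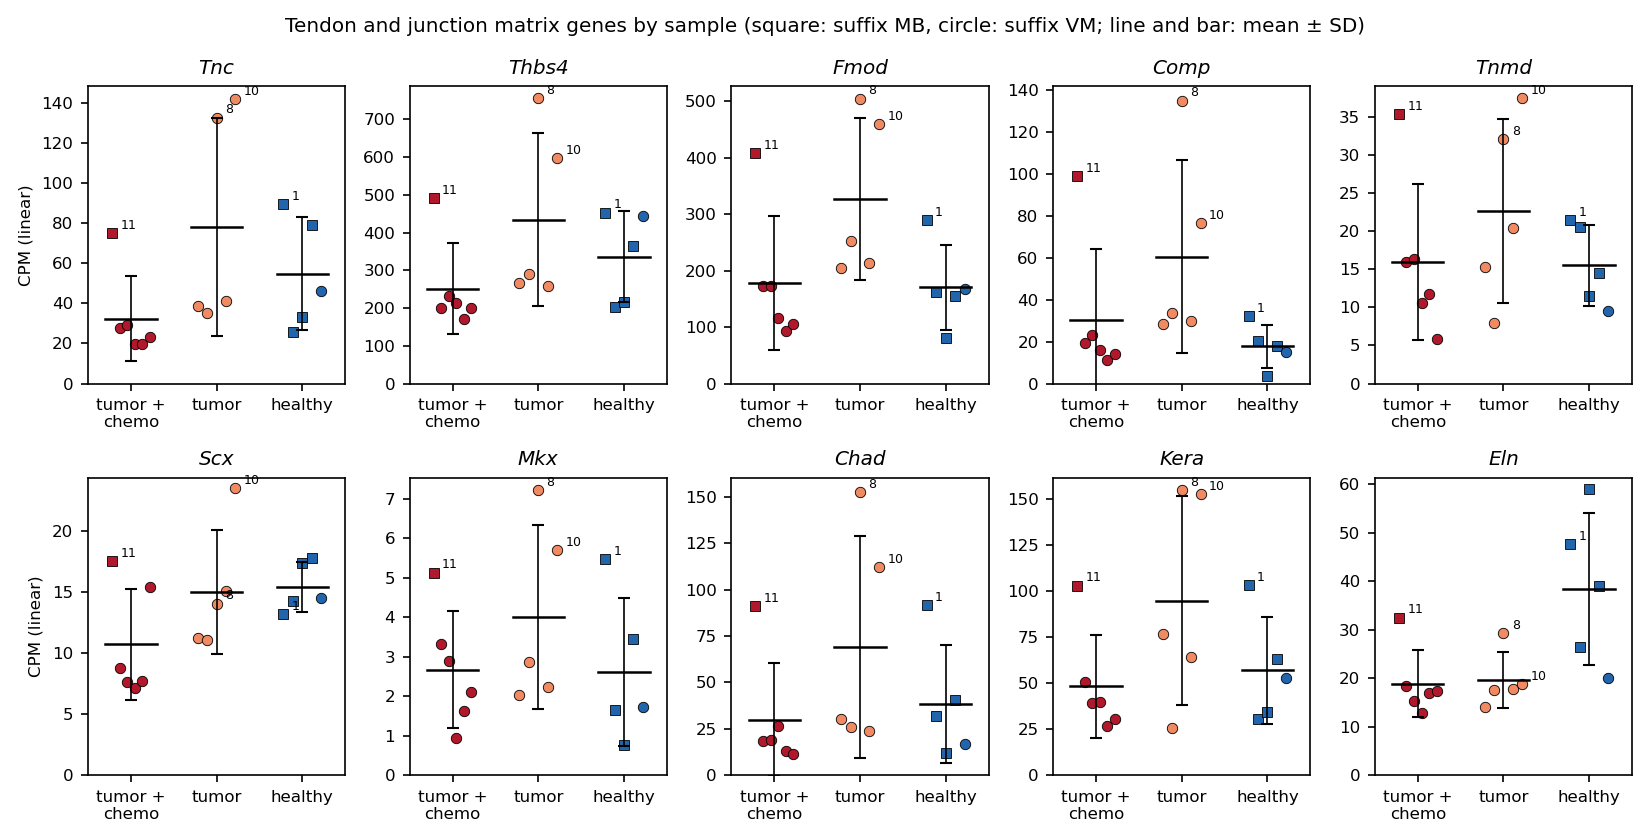
CPM of each gene (linear axis) in tumor with chemotherapy, tumor and healthy samples, with 1 point per sample, the mean and the SD, whose lower arm is cut at 0 for Comp and Chad. Library 11 stands above the 5 other chemotherapy samples in all 10 panels, and libraries 8 and 10 above the other tumor samples in all panels but that of Scx.

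The spread within groups, as the pooled SD of log2 CPM, ran from 0.43 for Scx to 1.16 for Chad, where the median of all genes tested was 0.36. Chad varied more than 99.4% of the genes tested and Comp more than 99.0%. Differences within groups made up 90.7% of the variance of Tnmd over the 16 samples and 50.8% of that of Eln. These were the highest and the lowest share among the 10. With 16 samples in 3 groups, most of the variance lies within groups even where groups do not differ. The shares therefore do not say that group differences were absent, and the share over all genes was not computed.

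Levels of the genes rose and fell together from sample to sample. Over 45 pairs, the median Pearson correlation of log2 CPM was 0.75, and 0.75 again after the group means were taken out. A correlation above 0 was found in 44 pairs, and 31 had an adjusted permutation p below 0.05. All pairs share the same 16 libraries and their scaling. The share over pairs of all genes was not computed, and high correlations were not particular to the 10. Comp, at r = 0.70, ranked 469th of 11855 genes in likeness to Tnc, while at 0.73 it ranked 34th in likeness to Tnmd. The closest pair was Fmod and Comp, with r = 0.95 (permutation p = 1e-05, the smallest that 100000 permutations can give, adjusted p = 7.5e-05) and Spearman's rho of 0.97 (permutation p = 1e-05, adjusted p = 0.000225). Without libraries 8 and 10, the 2 samples farthest from the median, r was 0.93. Tnc and Thbs4 followed with r = 0.95 (permutation p = 1e-05, adjusted p = 7.5e-05) and rho of 0.94 (permutation p = 1e-05, adjusted p = 0.000225), and r was 0.91 without the same libraries. Eln and Scx followed the others less closely. For Eln, the median correlation with the 9 other genes was 0.28, and that with Comp was -0.08 (permutation p = 0.767, adjusted p = 0.767; rho 0.15, permutation p = 0.578, adjusted p = 0.605). With libraries 8 and 3 left out, that r was 0.28. For Scx the median r was 0.42. With the group means taken out, the median was 0.47 for Eln and 0.37 for Scx, and Eln with Comp was at 0.34.

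**Figure D2:**
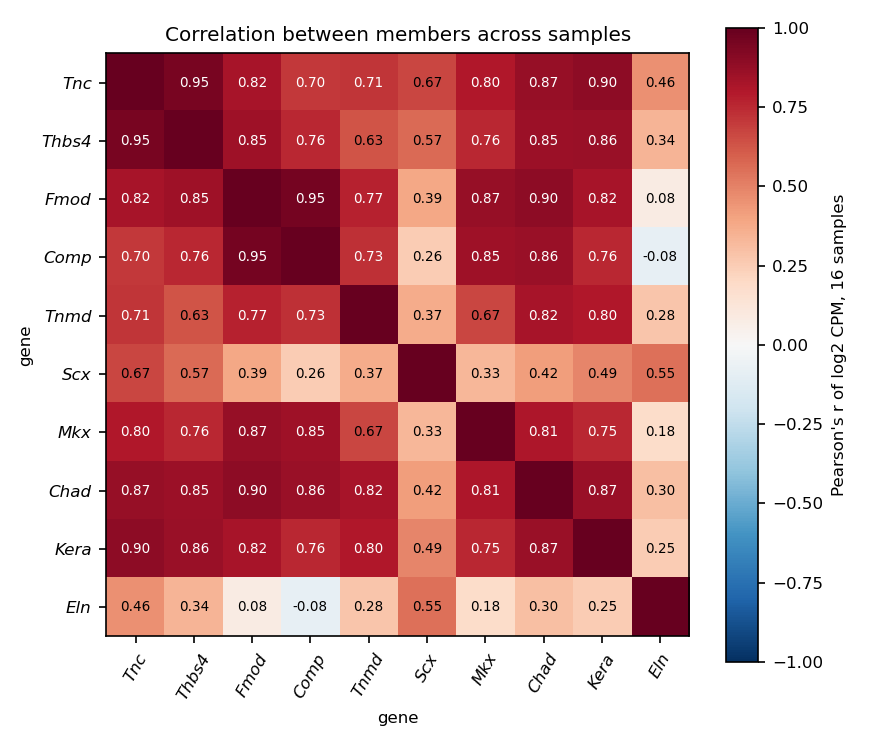
Pearson's r of log2 CPM between each pair of the 10 genes over 16 samples, with the color from -1 to 1. The 8 genes other than Scx and Eln form a block of high values, while those 2 rows are paler, with a median r of 0.42 and 0.28.

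The RefSeq promoters of the 2 closest pairs are shown because their genes moved together most tightly. RefSeq's table, in build GRCr8, held a promoter for 8 of the 10 genes, each running from 250 bases before the start of the gene to 50 after it. Capitals mark the letters CANNTG, the E-box that basic helix-loop-helix factors such as Scx bind, a pattern that reads the same on both strands.
Fmod, chr13:48045317-48045616, plus strand: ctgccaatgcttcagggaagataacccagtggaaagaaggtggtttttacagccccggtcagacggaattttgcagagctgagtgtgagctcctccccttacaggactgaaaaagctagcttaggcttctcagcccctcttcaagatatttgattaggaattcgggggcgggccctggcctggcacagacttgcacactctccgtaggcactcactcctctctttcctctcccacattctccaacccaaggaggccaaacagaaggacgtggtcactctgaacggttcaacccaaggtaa
Comp, chr16:19089499-19089798, minus strand: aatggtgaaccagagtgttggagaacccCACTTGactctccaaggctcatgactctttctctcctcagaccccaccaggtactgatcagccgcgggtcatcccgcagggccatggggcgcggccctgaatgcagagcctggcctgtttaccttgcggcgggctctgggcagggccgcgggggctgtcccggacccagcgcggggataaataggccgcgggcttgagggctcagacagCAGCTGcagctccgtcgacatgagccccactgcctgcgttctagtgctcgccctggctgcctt
Tnc, chr5:82476082-82476381, minus strand: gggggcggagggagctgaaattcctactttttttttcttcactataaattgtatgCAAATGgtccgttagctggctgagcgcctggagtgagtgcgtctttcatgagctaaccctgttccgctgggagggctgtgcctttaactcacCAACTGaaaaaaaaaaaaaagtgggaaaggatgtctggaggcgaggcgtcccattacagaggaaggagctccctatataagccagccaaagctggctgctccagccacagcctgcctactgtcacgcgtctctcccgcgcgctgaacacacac
Thbs4, chr2:25760296-25760595, minus strand: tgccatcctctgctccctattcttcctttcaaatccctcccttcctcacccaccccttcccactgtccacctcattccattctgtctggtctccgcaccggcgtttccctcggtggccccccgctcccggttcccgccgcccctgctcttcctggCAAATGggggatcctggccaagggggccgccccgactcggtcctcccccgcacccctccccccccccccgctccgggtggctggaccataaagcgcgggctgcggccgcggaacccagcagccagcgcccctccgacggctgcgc
The window of Fmod held 0 matches, Comp 2, Tnc 2 and Thbs4 1. At least 1 match stood in 72.1% of the 33469 promoters of the same length in the table. A match is only those letters, and its absence says only that they are not in this window.

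**Figure D3:**
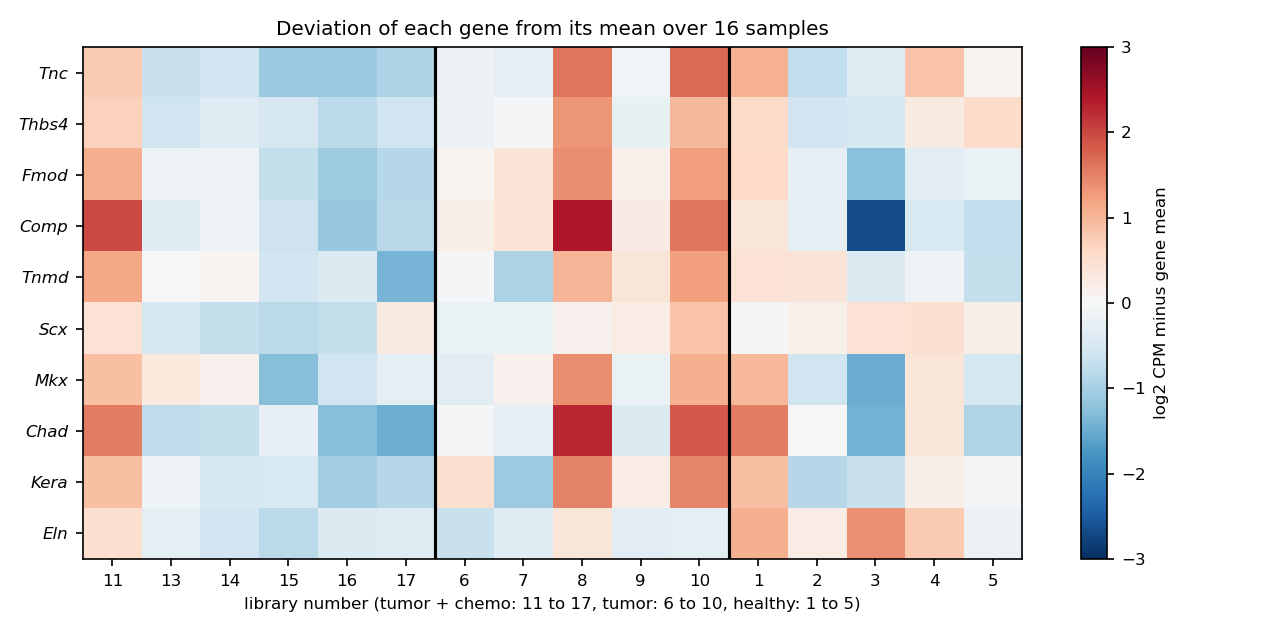
Log2 CPM of each gene minus its mean over 16 samples (color), with samples of tumor with chemotherapy on the left, tumor in the middle and healthy on the right. Columns 8, 10 and 11 are red in nearly every row, while Eln is highest in healthy libraries 1, 3 and 4.

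In chemotherapy samples against healthy ones, elastin was called lower, at an edgeR adjusted p below 0.05 over all genes, and the 9 other genes were not called. Of all genes tested, 13.7% were called, 6.41% lower and 7.3% higher, so 1 in 10 is near the background. At an unadjusted p below 0.05 the count was again 1 of 10, against 36.4% of all genes. Groups that did not overlap were found for none of the 10, against 4% of all genes. The 9 others had log2 fold changes between -0.73 and 0.86. Over the 10, 6 were negative, against 51.2% of all genes, and the median was -0.26, against -0.02 over all genes. In tumor-bearing rats without chemotherapy against healthy samples, edgeR called none of the 10 and 0% of all genes. At an unadjusted p below 0.05, 3 of the 10 passed (Fmod, Comp and Eln), against 18% of all genes, and none had groups that did not overlap, against 0.995%. Only Scx and Eln had negative fold changes, where 49% of all genes did, and the median was 0.60, against 0.01 over all genes. Chemotherapy against tumor alone gave none of the 10 called by edgeR and again 0% of all genes, with 4 at an unadjusted p below 0.05 (Tnc, Thbs4, Fmod and Kera) against 5.78%, and no gene of the 10 with groups that did not overlap, against 0.481%. The 4 rests on single samples: leaving out 1 sample at a time gave 0 to 8, and keeping libraries 11 and 12 apart gave 1. The 3 of tumor against healthy became 1 to 5 in the same way. With the suffix as a term, 8 of the 10 passed in chemotherapy against tumor, where 1157 of 11856 genes did. In tumor against healthy, 7 passed with that term, where 273 of all genes did, in a fit that leans on healthy library 5. In chemotherapy against tumor all 10 fold changes were negative, with a median of -0.83 against 0.00 over all genes, of which 49.4% were negative. Because the genes move together, 10 signs are not 10 independent observations. DESeq2 and limma-voom called none of the 10 in these last 2 comparisons, and Eln alone in chemotherapy against healthy. The comparisons share samples: each pair of them has 1 group in common.

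**Figure D4:**
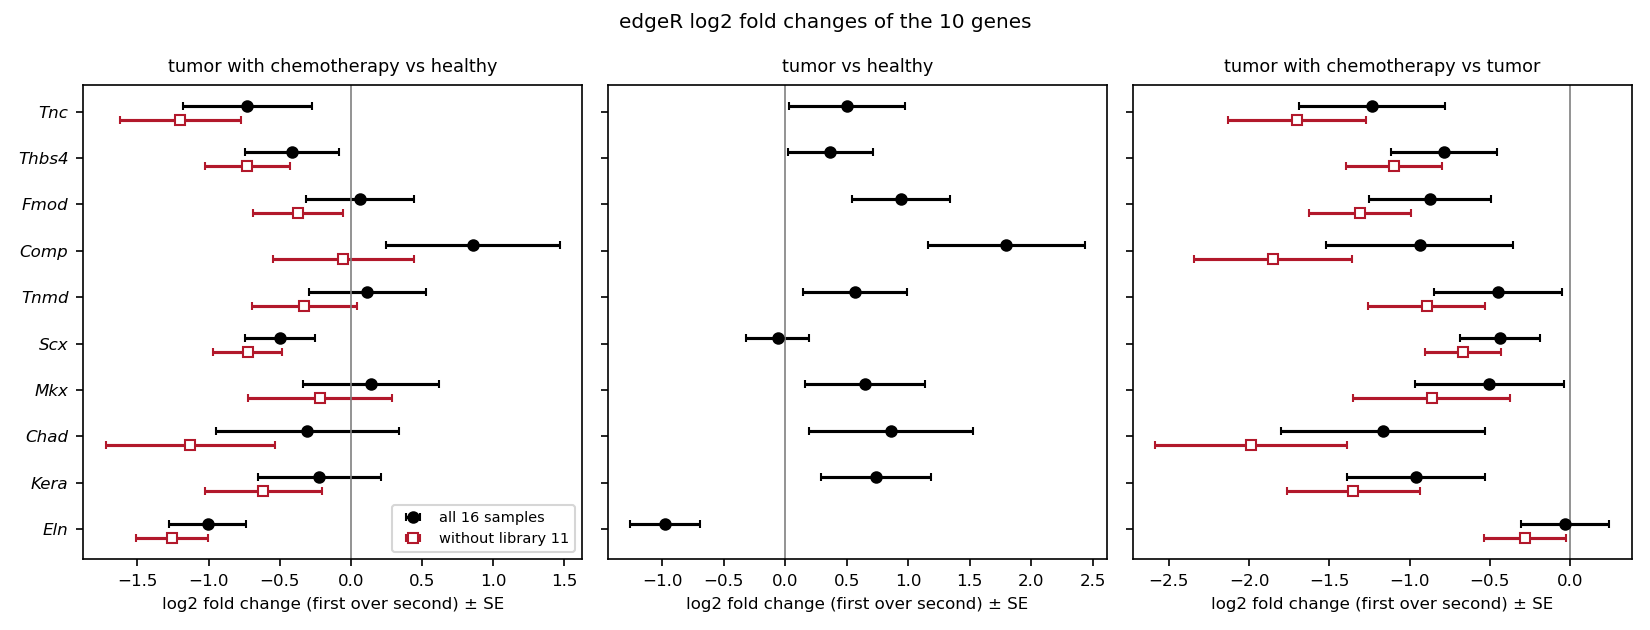
EdgeR log2 fold changes with SE for the 10 genes in the 3 comparisons, for all 16 samples (filled circles) and without library 11 (open squares). Against tumor all 10 points lie below 0 in both fits, and leaving out library 11 moves every point of the comparisons with chemotherapy to the left.

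Tnmd, the tendon cell marker, was at 35.4 CPM in library 11 and at 16.03, 16.3, 10.6, 11.8 and 5.89 CPM in chemotherapy libraries 13 to 17. Tumor libraries 6 to 10 had 15.3, 8.01, 32.2, 20.5 and 37.5 CPM, and healthy libraries 1 to 5 had 21.5, 20.6, 11.6, 14.5 and 9.58 CPM. The 3 groups overlapped over most of their range. The log2 fold change was 0.12 ± 0.41 (SE) for chemotherapy against healthy, 0.56 ± 0.42 for tumor against healthy and -0.45 ± 0.40 for treated against untreated tumor-bearing samples (edgeR adjusted p = 0.862, 0.454 and 0.803). Its intervals were wide: for chemotherapy against healthy the 95% interval ran from -0.74 to 0.97.

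Scx, a factor that specifies tendon progenitors, was at 17.5 CPM in library 11 and at 8.77, 7.66, 7.17, 7.73 and 15.4 CPM in libraries 13 to 17. It was at 11.2, 11.1, 14.1, 15.1 and 23.5 CPM in tumor libraries 6 to 10 and at 13.2, 14.3, 17.4, 17.8 and 14.5 CPM in healthy libraries 1 to 5. Chemotherapy libraries 13 to 16 lay below every tumor and every healthy sample, and libraries 11 and 17 lay among them. Chemotherapy against healthy gave -0.50 ± 0.25 (SE, adjusted p = 0.154), tumor against healthy -0.06 ± 0.26 (0.916) and chemotherapy against tumor -0.44 ± 0.25 (0.778). The sign for tumor against healthy held in 16 of 23 alternative settings and turned when samples were scaled by total counts only. Mkx, a homeobox factor of tendon cells, had few counts, from 3 in library 15 to 105 in library 11. It averaged 2.67 ± 1.48 CPM with chemotherapy (SD, n = 6), 4.01 ± 2.32 with tumor (n = 5) and 2.61 ± 1.87 in healthy samples (n = 5), with log2 fold changes of 0.14 ± 0.48 against healthy, 0.65 ± 0.49 for tumor against healthy and -0.50 ± 0.46 for treated against untreated tumor-bearing samples (adjusted p = 0.855, 0.458 and 0.809).

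Among the collagen-binding proteins, Fmod, which encodes fibromodulin, was at 408 CPM in library 11 and at 172, 173, 116, 92.2 and 105.5 CPM in libraries 13 to 17. Tumor libraries 6 to 10 had 204, 252, 504, 214 and 459 CPM, and healthy libraries 1 to 5 had 290, 163, 80.4, 154 and 167 CPM. Every tumor sample lay above 4 of the 5 healthy samples, and healthy library 1 lay among the tumor samples. Tumor against healthy gave a log2 fold change of 0.94 ± 0.40 (SE, edgeR adjusted p = 0.25), chemotherapy against tumor -0.87 ± 0.38 (0.778) and chemotherapy against healthy 0.07 ± 0.38 (0.916). Leaving out library 11 turned the last to -0.37.

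Kera, which encodes keratocan, a proteoglycan best known from the cornea, ran from 26.7 to 103 CPM with chemotherapy (median 39.6), from 25.8 to 155 CPM with tumor (median 76.9) and from 30.5 to 103 CPM in healthy samples (median 52.9). Chad, which encodes chondroadherin, a protein of cartilage and tendon matrix, ran from 11.2 to 91.0 CPM with chemotherapy (median 18.7), from 23.5 to 153 CPM with tumor (median 30.4) and from 11.7 to 91.6 CPM in healthy samples (median 31.6). The highest chemotherapy and healthy samples, libraries 11 and 1, were at nearly the same level for both genes. Chemotherapy against tumor was -0.96 ± 0.43 (SE) for Kera and -1.16 ± 0.63 for Chad, both at an adjusted p of 0.778, and tumor against healthy was 0.74 ± 0.45 and 0.86 ± 0.67 (adjusted p = 0.367 and 0.47). Against healthy samples, chemotherapy gave -0.22 ± 0.43 for Kera and -0.31 ± 0.64 for Chad (adjusted p = 0.735 and 0.755).

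Comp, cartilage oligomeric matrix protein, which bridges collagen molecules in tendon and cartilage, was at 99.1 CPM in library 11 and at 19.4, 23.3, 16.2, 11.2 and 13.9 CPM in libraries 13 to 17. Tumor libraries 6 to 10 had 28.3, 33.5, 135, 29.9 and 76.4 CPM, and healthy libraries 1 to 5 had 32.3, 20.3, 3.73, 18.03 and 14.9 CPM. Only healthy library 1 reached the tumor samples. Tumor against healthy gave 1.80 ± 0.64 on the log2 scale (SE, edgeR adjusted p = 0.239), the largest fold change of the 10 genes in any of the 3 comparisons, and it was not called. Chemotherapy against healthy was 0.86 ± 0.61 and chemotherapy against tumor -0.94 ± 0.58 (adjusted p = 0.316 and 0.778). Library 11 carried the first of these: without it the value was -0.05 ± 0.50.

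Thbs4, the thrombospondin of tendon and of the muscle end of the junction, was at 493 CPM in library 11 and between 172 and 233 CPM in the 5 other chemotherapy samples. It was at 267, 290, 757, 260 and 598 CPM in tumor libraries 6 to 10 and at 453, 203, 217, 365 and 444 CPM in healthy libraries 1 to 5. Tnc was at 75.3 CPM in library 11 and between 19.9 and 29.1 CPM in the 5 others, at 38.9, 35.3, 133, 41.3 and 142 CPM in tumor libraries 6 to 10 and at 89.5, 25.8, 33.4, 79.1 and 46.3 CPM in healthy libraries 1 to 5. For both genes the 5 chemotherapy samples other than library 11 lay below all 5 tumor samples. Tnc had log2 fold changes of -0.73 ± 0.45 for chemotherapy against healthy, 0.50 ± 0.47 for tumor against healthy and -1.23 ± 0.45 for treated against untreated tumor-bearing samples (SE, adjusted p = 0.253, 0.553 and 0.778). Thbs4 had -0.42 ± 0.33, 0.37 ± 0.35 and -0.78 ± 0.33 in the same comparisons (adjusted p = 0.369, 0.556 and 0.778).

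Eln was at 32.5 CPM in library 11 and at 18.4, 15.2, 12.8, 16.9 and 17.3 CPM in libraries 13 to 17. Tumor libraries 6 to 10 had 14.1, 17.5, 29.3, 17.8 and 18.9 CPM, and healthy libraries 1 to 5 had 47.6, 26.4, 59.05, 39.03 and 20.01 CPM. All 5 chemotherapy samples other than library 11 lay below all 5 healthy samples, and so did 4 of the 5 tumor samples. The fall with chemotherapy against healthy was -1.005 ± 0.271 on the log2 scale (SE, edgeR adjusted p = 0.0308). Tumor against healthy gave -0.97 ± 0.28 (adjusted p = 0.211), close in size but not called, and chemotherapy against tumor -0.03 ± 0.27 (adjusted p = 0.981, 95% interval -0.60 to 0.55). The call was lost without any 1 of healthy libraries 1, 3 and 4 (adjusted p = 0.0758, 0.0878 and 0.0897) or of chemotherapy libraries 13 to 16 (0.0628, 0.0753, 0.0666 and 0.0548), with fold changes between -1.01 and -0.80. With the suffix as a term it was -0.36 (adjusted p = 0.628), in the VM libraries alone, with 1 healthy sample, -0.31 (0.754), after adding 1 surrogate variable -0.23 (0.941), and -0.25 (0.926) when healthy libraries 1, 3 and 4 were all left out. For tumor against healthy the value in the VM libraries alone was -0.03, again with 1 healthy sample. Healthy libraries 1 to 4 carry MB and healthy library 5 carries VM, so suffix and group cannot be told apart there.

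Leaving out library 11 moved both comparisons that hold it, the median of the 10 genes to -0.67 against healthy and to -1.20 against tumor. Against tumor, the remaining 5 and 5 samples all carry the suffix VM. Library 11 was the highest of its group for all 10 genes, so leaving it out lowers each of their chemotherapy means. That need not hold for other genes, so the shares of all genes given here are not a like measure. Without library 11, Tnc, Thbs4, Fmod and Comp did not overlap between chemotherapy and tumor samples. They were lower with chemotherapy, 4 of 10 genes where 1.05% of all genes did so. Their log2 fold changes were -1.70 ± 0.43, -1.09 ± 0.30, -1.31 ± 0.32 and -1.85 ± 0.49 (SE), and Chad stood at -1.99 ± 0.60 and Kera at -1.35 ± 0.41. None was called over all genes (edgeR adjusted p = 0.356 for Tnc, 0.365 for Thbs4 and Comp, 0.341 for Fmod and 0.421 for Chad and Kera), and again 0% of all genes were called. At an unadjusted p below 0.05, 8 of the 10 passed, against 9.88% of all genes. With library 11 kept, this count was 4 over all samples. Leaving out 1 other sample could move that 4 the other way. The count was 0 without tumor library 8 or without tumor library 10, and 1 without chemotherapy library 15 or without library 16. It was 0 with 1 surrogate variable, again with library 11 kept. Against healthy samples, leaving out library 11 gave 2 genes called lower, Eln at -1.26 ± 0.25 (adjusted p = 0.0141), whose groups did not overlap, as in 4.99% of all genes lower, and Scx at -0.73 ± 0.24 (adjusted p = 0.0365), where 11.7% of all genes were called lower. Tnc, at -1.20 ± 0.43, fell just short of the threshold. At an unadjusted p below 0.05, 4 of the 10 passed there, against 40.5% of all genes.

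The proportions among the genes also differed between samples, which was looked at after the values were seen and is given with no test. The ratio of Comp to Tnc counts was 1.32 in library 11 and between 0.561 and 0.812 in the 5 other chemotherapy samples. It was 0.729, 0.949, 1.02, 0.723 and 0.538 in tumor libraries 6 to 10 and 0.361, 0.787, 0.111, 0.228 and 0.321 in healthy libraries 1 to 5. Healthy libraries 1, 3, 4 and 5 lay below all chemotherapy and all tumor samples, and healthy library 2 lay among them. Comp to Chad showed less separation, with 0.612 to 1.24 for chemotherapy, 0.681 to 1.30 for tumor and 0.320 to 0.883 for healthy samples. Libraries 11 and 1 show the difference at like levels of other genes: Chad was at 91.0 and 91.6 CPM and Kera at 103 CPM in both, while Comp was at 99.1 and 32.3 CPM. Set against the mean log2 CPM of the 9 other genes, Comp was higher and Eln lower in every tumor sample than in every healthy sample, with medians that differed by 1.02 and -1.18. Fmod was higher in every tumor sample too, by 0.36 between medians. Tnc on the same scale was lower in every chemotherapy sample, library 11 included, than in every tumor sample, by -0.19 between medians. The other 26 of 30 sets of a gene and a comparison overlapped, all 10 of chemotherapy against healthy among them, and Fmod cleared narrowly, with a lowest tumor value of 2.881 and a highest healthy value of 2.875. Of all other genes, set against the mean of the 10, 1.57% did not overlap for tumor against healthy, 0.11% for chemotherapy against tumor and 0.0507% for chemotherapy against healthy. Those shares are not a like measure, since each of the 10 was set against the 9 others and these genes against all 10. Healthy library 3 was the extreme for both, with the lowest Comp of all 16 samples and the highest Eln.

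**Figure D5:**
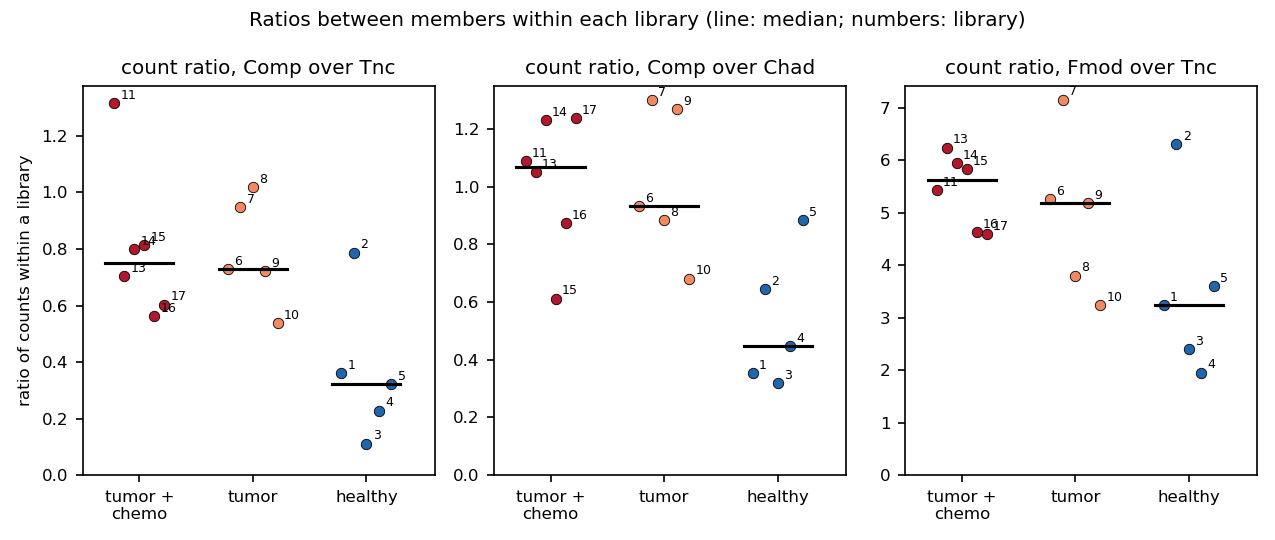
Ratio of counts between pairs of genes within each library (linear axes), with 1 numbered point per sample and the group median as a line. For Comp over Tnc, healthy libraries 1, 3, 4 and 5 lie below all chemotherapy and tumor samples. Gene length cancels between samples but not between ratios.

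Other genes of the same matrix were looked at in lists. In chemotherapy against healthy, 6.41% of all genes were called lower, 7.3% higher, and 51.2% had negative fold changes. Those are the shares to set beside each list and marker count below. A list with 1 call is too short to tell from them. Of 11 tendon and junction collagens tested, 6 were called lower with chemotherapy against healthy and none higher (median log2 fold change -0.89, against -0.02 over all genes). Col5a2, a regulator of fibril diameter, averaged 123 ± 28.0 CPM with chemotherapy and 226 ± 58.2 CPM in healthy samples, and Col3a1, a fibrillar collagen, 1084 ± 393 against 2695 ± 1103 CPM (SD, n = 6 and 5). Col5a1 and Col5a3 were at -1.13 ± 0.29 and -0.89 ± 0.24 (SE, edgeR adjusted p = 0.029 and 0.0308). Col22a1, the collagen of the muscle side of the junction, named outside the rule for naming genes, was at 0.11 ± 0.19 (adjusted p = 0.694), with 26.9 ± 2.71 CPM against 24.8 ± 4.03 CPM. It averaged 40.1 ± 14.3 CPM with tumor alone, which gave 0.71 ± 0.20 against healthy samples and, for chemotherapy against tumor, -0.59 ± 0.19, neither called (adjusted p = 0.211 and 0.778). All calls of this comparison were lost where edgeR called 0 genes, as with the suffix as a term.

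Of 18 elastic fiber partners of elastin tested, 5 were called lower, against 6.41% of all genes, and none higher. Of the 18, 17 were negative, against 51.2% of all genes (median -0.61). Fbn1, the fibrillin of the microfibril scaffold, averaged 419 ± 101 CPM with chemotherapy and 877 ± 354 CPM in healthy samples (log2 fold change -1.06 ± 0.27, adjusted p = 0.0289). Fbln2, Loxl2, a crosslinking enzyme, and Ltbp4 were at -0.73, -1.01 and -0.87. In tumor against healthy, 16 of the 18 were negative, against 49% of all genes, with none called where 0% of all genes were. Of 6 leucine-rich proteoglycans tested besides the 3 above, 1 was called lower, Bgn, which encodes biglycan, at -0.76 ± 0.24 (adjusted p = 0.045). Of 9 other thrombospondins, tenascins and partners of Comp tested, 1 was called lower, the fibronectin gene Fn1, at -0.91 ± 0.29 (adjusted p = 0.0478), and all 9 were negative (median -0.64).

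Of 16 receptors of these proteins tested, 4 were called lower: the integrin genes Itga11 and Itga8 at -0.80 both, Egfr at -0.67 and Lrp1, a clearance receptor, at -0.87 (adjusted p = 0.0342, 0.0367, 0.0402 and 0.0493). Of 19 regulators of tendon cells tested, Tgfbr1, a receptor of transforming growth factor beta, was called higher at 0.68 ± 0.20, and Pdgfra, a growth factor receptor of fibroblasts, lower at -0.69 ± 0.22 (adjusted p = 0.0352 and 0.044). In tumor against healthy and in chemotherapy against tumor, edgeR called no member of these 6 lists and 0% of all genes.

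Markers of other tissues that a piece of muscle can hold were measured beside the 10 genes, and their part in the results was not tested. Of 12 cartilage markers, 4 passed the filter and none was called. Cytl1 at 7.86 to 25.5 CPM and Col2a1, the main cartilage collagen, at 1.42 to 16.3 CPM had counts in every sample and the highest medians of the list. Acan, the cartilage proteoglycan, stayed at or below 6.35 CPM, and Matn1 was listed at 0 in all 16 samples, Col9a2 in 11 and Col10a1 in 13. A 0 here need not mean absence, since the connective tissue genes Ogn, Omd and Mfap4 were also listed at 0 in every group and the annotation is not known. The summed cartilage level ran from 15.3 to 35.6 CPM with chemotherapy, from 19.2 to 48.5 with tumor and from 23.3 to 37.5 in healthy samples. Col2a1 and Sox9 were at -1.01 ± 0.52 and -0.47 ± 0.41 for chemotherapy against healthy (SE, adjusted p = 0.172 and 0.424). Of 6 synovium and tendon sheath markers tested, Cd55 was called higher at 1.04 ± 0.28 (adjusted p = 0.0308), while the 5 others had negative fold changes, none called, and the list's median was -0.17. The summed level ran from 210.3 to 448 CPM, from 269 to 501 CPM and from 240 to 408 CPM in the same 3 groups.

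Of 12 fibroblast markers tested, 4 were called lower with chemotherapy against healthy and none higher: Cd34 at -1.06, Smoc2 at -0.85, Cxcl14 at -0.78 and Pdgfra, counted above too. Their summed level ran from 2717 to 11336 CPM with chemotherapy, from 3384 to 13330 CPM with tumor and from 4628 to 14255 CPM in healthy samples, and was highest in libraries 11, 10 and 1. That sum follows Col1a1 most, which is also on the collagen list and ran from 865 to 11111 CPM. Gsn, with the next widest range, ran from 909 to 2320 CPM. Of 11 smooth muscle and pericyte markers tested, 6 were called lower, with Cspg4 at -1.01, Notch3 at -1.11, Tagln at -0.71 and Acta2 at -1.17. The 2 with positive fold changes, Rgs5 at 0.31 and Mcam at 0.19, were not called. The summed level of the smooth muscle and pericyte list ran from 484 to 650.2 CPM with chemotherapy, from 651 to 882 CPM with tumor and from 712 to 834 CPM in healthy samples. Nerve and Schwann cell markers were highest in libraries 11 and 8 too, with sums of 127 to 488 CPM, 133 to 522 CPM and 142 to 326 CPM in the 3 groups, and none of 8 tested was called. Cartilage and synovium sums were highest in libraries 11 and 8 as well, and so were endothelial and muscle fiber sums. Smooth muscle and pericyte sums were highest in libraries 15 and 7 of the same groups, and adipocyte sums in libraries 17 and 8. Among the nerve markers S100b was at 1.32 ± 0.59 and Ncam1 at -0.22 ± 0.23 (adjusted p = 0.115 and 0.489).

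Of 9 endothelial markers tested, Tie1 was called lower at -0.64 and Emcn higher at 0.72, with sums of 265 to 349 CPM, 305 to 408 CPM and 334 to 377 CPM. Of 7 adipocyte markers tested, Fabp4 was called higher at 0.96, with sums of 133 to 584 CPM, 110.3 to 271 CPM and 79.0 to 160.4 CPM. Of the 9 muscle fiber markers, Acta1 and Ckm were called lower at -0.86 and -0.82. The list was mixed, with 6 negative and 3 positive: Tnnt1 at 0.79, Tnnc2 at 0.58 and Tnnt3 at 0.24, none called. EdgeR called no marker in the 2 other comparisons, where 0% of all genes were called.

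Genes whose log2 CPM followed Tnmd most closely over the 16 samples, of 11855 others tested, were Pdgfrl (r = 0.89, rho = 0.84), Ecrg4 (0.88 and 0.85) and Lox, which encodes lysyl oxidase, the crosslinker of collagen and elastin (0.88 and 0.86). The genes most like Tnc were Col12a1, a collagen of the fibril surface (r = 0.97, rho = 0.94), Thbs4 (0.95 and 0.94) and Olfml3 (0.94 and 0.93). Among the 9 other genes of the set, Chad ranked 10th and Kera 13th in likeness to Tnmd, while Scx ranked 914th and Eln 1884th. These genes were picked as the highest of many, so no p is given.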

How the data were processed

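The authors deposited raw read counts per gene for 17 libraries with no normalization, per the file header. Tools listed without a role in the submitters' processing notes are TopHat2 2.0.10, Bowtie2, Trim Galore 0.4.1, CASAVA 1.9 and FastQC 0.11.4. Build, annotation and counter: not given in the sources used here. Of 32883 entries, 388 without a gene name, at most 0.373% of a library's counts, were left out. Libraries 11 and 12 were summed. Tests used edgeR 4.0.16 in R 4.3.3: TMM scaling, filterByExpr (minimum count 10), robust quasi-likelihood fits with 1 mean per group over 16 samples (13 residual degrees of freedom), and Benjamini-Hochberg adjustment over 11856 entries, with a call at an adjusted p below 0.05. Each SE was derived from the fold change and its F statistic. Correlations used log2 CPM (prior count 2). The fit was tested on simulated counts, drawn independently for each gene with the same dispersion for all. That test does not cover genes as variable and correlated as the 10, and no result here rests on it. Alternatives used DESeq2 1.42.0, limma 3.58.1 and sva 3.50.0. The 10 genes, 14 further lists and the alternatives were chosen with earlier results of these data known. Named were the 10, up to 4 called genes of each list with the smallest p (otherwise 2) and the 3 genes most like Tnmd and Tnc.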

Additional observations from a re-analysis of the deposited data

Results flagged for a closer look

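In the chemotherapy group, library 11 lay far above the 5 other samples for 8 of the 10 genes, by a gap test on the highest or lowest sample of each group (Dixon's 95% critical value). The levels were 75.3 CPM for Tnc (next highest sample 29.1), 493 CPM for Thbs4 (233), 408 CPM for Fmod (173) and 99.1 CPM for Comp (23.3). They were 35.4 CPM for Tnmd (16.3), 91.0 CPM for Chad (26.5), 103 CPM for Kera (50.5) and 32.5 CPM for Eln (18.4). In all, 30 sets of a gene and a group were searched, and chance flags about 1 in 20 where values are normally distributed. The gaps were taken on linear CPM, which stretches high values, and were not tested on the log2 scale. The 8 are not independent, since these genes move together and share the library. Library 11 is the sum of 2 libraries, taken as 1 sample with some uncertainty, and the only one of its group with the suffix MB.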

How the results depend on the processing

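No paired analysis was possible because library numbers run on across the groups and share no number. In chemotherapy against healthy, Eln stayed negative in all 24 alternatives (adjusted p 0.00799 to 0.941) and was called in 13. None of the 10 genes was called with the suffix as a term, in VM libraries alone, with 1 surrogate variable or without healthy libraries 1, 3 and 4, where 0 genes of all were called too. In tumor against healthy, by contrast, the suffix as a term moved Comp to 2.97 from 1.80 and Chad to 2.46 from 0.86. That fit also gave the highest value over the alternatives for Tnc (1.28), Fmod (1.59), Tnmd (1.56), Mkx (1.46), Kera (1.37) and Scx (0.36). Thbs4 and Eln were highest in other settings. Among healthy samples VM stood on library 5 alone, so these values lean on that library. In chemotherapy against healthy, 1625 of all genes were called, 884 with no filter, 2577 with DESeq2 and 2444 with limma-voom. Scaled by total counts only, 1669 were higher and 348 lower, against 865 and 760, and the median of all genes moved to 0.12 from -0.02 (to 0.13 from 0.01 for tumor against healthy). For tumor against healthy DESeq2 called 40 genes in all, and for chemotherapy against tumor 9, where the fit with 1 surrogate variable called 8. The causes were not tested. Leaving out 1 sample at a time gave 0 to 2 of the 10 genes called in chemotherapy against healthy, 0 to 1 in tumor against healthy (Eln without healthy library 2, adjusted p = 0.047) and 0 in chemotherapy against tumor. Of all genes it gave 0 to 3799, 0 to 504 and 0 to 3. In chemotherapy against tumor, 9 of the 10 genes stayed negative in every alternative, and Eln in 18 of 24. Mkx did not pass a mean of 5 CPM. With the samples given, a fold change of Chad or Comp has an SE near 0.6 on the log2 scale, which limits what can be detected.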
